A study of Mus musculus with 12 samples.

Results

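The ADAM and ADAMTS families hold metalloproteases of the cell surface and the extracellular matrix and relatives without a protease domain, and 10 of these genes were followed here in the left ventricle of mice under pressure overload and after its relief. They were chosen by symbol (Adamts1, Adamts2, Adamts4, Adamts5, Adamts9, Adamtsl2, Adam10, Adam12, Adam15 and Adam19). For each gene the brightest probe set on average (over 12 arrays) was taken, among those annotated to that gene and no other. Of the 10, 9 had such a probe set, out of 18193 genes annotated in all, and Adamts2 was not analysed here. For 7 of the 9 the log2 signal lay above 4 on all 12 arrays, and these entered the tests of 10435 genes. Adamts4 and Adam12 stayed below log2 4 on every array.

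The mice were male C57BL/6, operated on at 7 weeks of age, with 3 mice in each of 4 groups and 1 Affymetrix array per mouse. AB mice had the aorta banded, which loads the left ventricle, and were killed 4 weeks later. sAB mice had the corresponding sham procedure. DB3 mice were banded for 4 weeks, had the band taken off in a second operation and were killed 3 days afterwards. sDB3 mice had a sham procedure and then the debanding step, and were also killed 3 days later. All groups had thus been operated on, and the animals that share the later date share the second operation. The tissue was left ventricular muscle after removal of the other chambers, with all its cell types, so that in any result below a change in the number of cells of a type and a change of RNA per cell cannot be told apart.

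ADAM proteases are anchored in the plasma membrane and release the outer parts of other membrane proteins, such as growth factors, cadherins and Notch receptors. ADAMTS proteases are secreted, carry thrombospondin type 1 repeats and act on matrix molecules, above all on aggregating proteoglycans such as versican and on procollagens. In the heart these enzymes are known for their part in valve formation, for growth factor release in hypertrophy and for turnover of the matrix between the muscle cells. Most are made as inactive precursors that furin-type convertases open.

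The promoters of the members that passed the test between AB and sDB3 are printed because these 3 genes moved the same way there. Windows of 250 bases before the annotated start are shown 5′ to 3′ on the plus strand of GRCm38.p6, from RefSeq. Capitals mark matches, on either strand, to the SMAD box CAGAC, the AP-1 site TGANTCA, the TEAD site GGAATG or the GC box GGGCGG. Adam19 has 3 starts in the table, of which the outermost is shown.
Adamtsl2, chr2:27079129-27079378: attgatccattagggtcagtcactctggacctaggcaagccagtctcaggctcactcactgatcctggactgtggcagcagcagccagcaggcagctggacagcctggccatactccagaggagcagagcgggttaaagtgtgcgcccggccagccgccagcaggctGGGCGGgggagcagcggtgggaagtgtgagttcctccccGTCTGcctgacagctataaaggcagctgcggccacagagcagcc
Adam10, chr9:70678732-70678981: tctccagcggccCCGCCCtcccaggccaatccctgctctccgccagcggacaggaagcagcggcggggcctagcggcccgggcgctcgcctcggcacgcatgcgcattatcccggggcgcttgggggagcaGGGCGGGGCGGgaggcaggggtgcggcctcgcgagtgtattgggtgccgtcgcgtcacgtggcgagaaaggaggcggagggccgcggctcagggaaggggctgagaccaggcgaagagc
Adam19, chr11:46054252-46054501: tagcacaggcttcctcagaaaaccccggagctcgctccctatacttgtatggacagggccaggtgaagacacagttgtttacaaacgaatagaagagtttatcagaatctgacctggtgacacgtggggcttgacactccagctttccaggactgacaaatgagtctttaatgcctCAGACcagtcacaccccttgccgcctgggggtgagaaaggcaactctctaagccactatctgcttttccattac
The Adamtsl2 window held 1 SMAD box (on the minus strand) and 1 GC box, which do not overlap. The Adam10 window held 3 GC boxes, the last 2 of which overlap by 1 base, and no SMAD box. In the Adam19 window the single match was a SMAD box. Of the 10 members, 7 had a window in the table, and 3 of these 7 held a SMAD box, 6 a GC box and 0 an AP-1 or a TEAD site. Over all 32851 windows of this length, 42.19% held a SMAD box, 32.74% a GC box, 6.75% an AP-1 site and 12.64% a TEAD site. The 3 windows therefore share no motif of those searched.

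Before the members are described, a feature of the arrays bears on every comparison with sAB. BioC, a bacterial transcript spiked into the hybridisation, read 10.15 to 10.51 (mean log2 signal of 4 probe sets) on the sAB arrays and 8.28 to 8.60 on the other 9. Batch and group cannot be told apart where sAB is used, so AB was also set against sDB3, which differs from AB in the second operation and the 3 days as well. For each of the 7 tested members the sAB arrays overlapped with the rest. Of the ventricular muscle markers (Myh6, Myl2, Myl3, Tnnt2, Tnni3, Actc1 and Ryr2) 7 of 7 were above log2 4 on at least 3 arrays, and the T and B cell markers Cd3e, Cd79a and Ms4a1 were below 4 on every array. Cd3g, another T cell marker, exceeded 4, but on fewer than 3 arrays. Its group means were 3.04 in DB3, 2.31 in AB and 2.23 in sAB and sDB3. With 3 arrays per group an exact permutation test cannot go below p = 0.1, so calls rest on limma, which pools the spread over genes and groups.

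In the F test over the 4 groups 5 of the 7 tested members passed, where 37.2% of all genes did. They were Adamtsl2 (limma adjusted p = 0.0025), Adamts9 (0.0094), Adam10 (0.0098), Adam19 (0.012) and Adam15 (0.048). Adamts5 and Adamts1 did not (adjusted p = 0.20 and 0.73). The members did not share a pattern. By group means Adamtsl2 was highest in AB, Adamts9 lowest in DB3, Adam19 and Adam10 lower in both groups taken after the second operation, and Adam15 lowest in sAB.

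**Figure D1:**
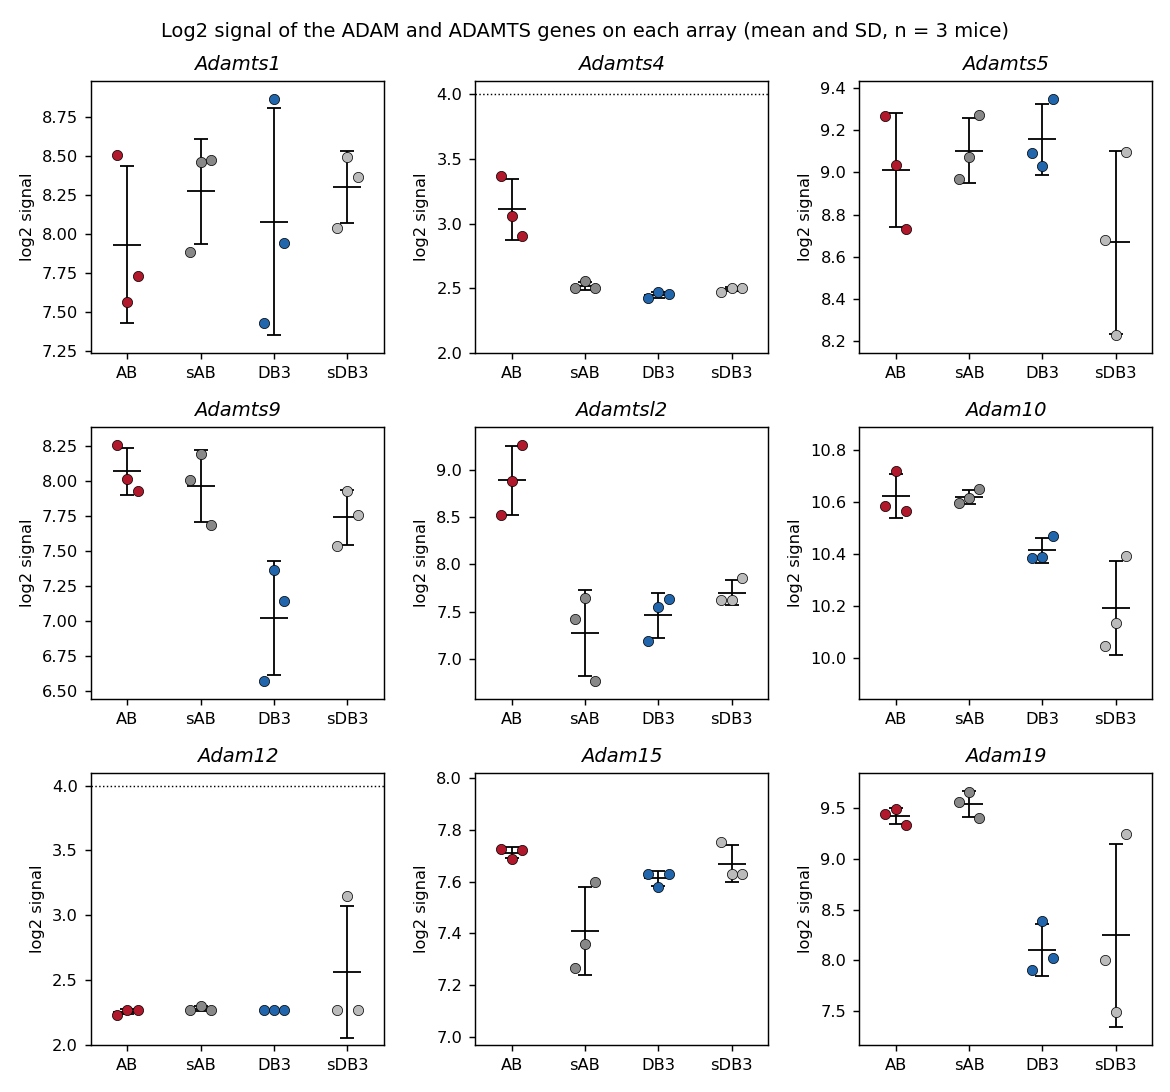
Log2 signal (vertical axis, scaled separately for each gene, with a range of at least 1 unit) of the 9 members with a probe set, in AB, sAB, DB3 and sDB3. Points are single arrays, bars the mean ± SD of 3 mice, and the dotted line marks log2 4 for the 2 dim genes. Adamtsl2 stands out in AB, at 8.53 to 9.26, above all 9 other arrays, and for Adam19 all AB and sAB arrays lie above all DB3 and sDB3 arrays.

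Adamtsl2 encodes a secreted relative of the ADAMTS enzymes that lacks the protease domain. It binds fibrillin microfibrils and latent TGF-beta binding protein, and mutations in the human gene cause geleophysic dysplasia, in which TGF-beta signalling is altered. Its log2 signal was 8.53, 8.88 and 9.26 on the AB arrays and 7.42, 7.64 and 6.77 on the sAB arrays. On the DB3 arrays it was 7.19, 7.55 and 7.63, and on the sDB3 arrays 7.63, 7.63 and 7.85. Every AB array thus lay above every array of the other groups, while DB3, sDB3 and sAB overlapped.

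In AB it rose 3.06-fold over sAB (by 1.61 ± 0.23 on the log2 scale, SE, with 3 mice per group, limma adjusted p = 0.0012). Against sDB3 it rose 2.28-fold (1.19 ± 0.23, adjusted p = 0.0066). After debanding it fell 2.69-fold in DB3 relative to AB (-1.43 ± 0.23, adjusted p = 0.0054). DB3 and sDB3 did not pass for a difference (-0.24, 95% interval -0.76 to 0.27, adjusted p = 0.54), nor did sDB3 and sAB (0.43, interval -0.09 to 0.94, adjusted p = 0.22). The banded-minus-sham difference was itself unequal at the 2 dates, by -1.85 ± 0.33 (adjusted p = 0.015), DB3 minus sDB3 less AB minus sAB. These comparisons share arrays and are not independent of each other. In the order of group means, AB stood above sDB3, DB3 and sAB. Of these last 3, sDB3 and DB3, and sDB3 and sAB, did not pass, and the arrays of DB3 and sAB overlapped.

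Markers of other cells and a sign of RNA quality are given beside Adamtsl2. The Actb probe sets at the 3′ and 5′ ends differed by 1.02 to 1.13 (log2) in AB, 1.20 to 1.26 in sAB, 1.11 to 1.32 in DB3 and 1.20 to 1.25 in sDB3, so that AB lay below both shams without overlap. The summed signal of 6 genes of activated fibroblasts (Postn, Cthrc1, Acta2, Fn1, Comp and Meox1) was 13.20 to 13.95 (log2 of the sum) in AB, 12.26 to 13.09 in sAB, 12.42 to 13.29 in DB3 and 12.63 to 13.04 in sDB3. Of 5 tested, Postn and Meox1 rose in AB against sAB, and Cthrc1 was too dim to test. The sum of 10 endothelial markers was 12.86 to 12.93 in AB, 12.66 to 12.72 in sAB, 12.52 to 12.76 in DB3 and 12.45 to 12.67 in sDB3, and 3 of 10 rose in AB against sAB (19.7% of all genes passed) and 6 of 10 against sDB3 (22%). The sum of 11 fibroblast markers, collagen genes among them, was 15.69 to 15.99 in AB, 15.64 to 15.94 in DB3 and 15.52 to 15.57 in sDB3. It started at 15.50 in sAB, where the highest array lay above all AB arrays. AB thus lay above sDB3 without overlap and overlapped with sAB and DB3. Of these 11, 2 rose in AB against sAB (Col1a1 and Pdgfra) and 2 against sDB3, where 19.7% and 22% of all genes passed. The part of these cells and of RNA quality in the Adamtsl2 result was not tested.

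Adamts9 is a secreted protease that cleaves versican and aggrecan and is required for cardiac development in the mouse. It read 6.57, 7.36 and 7.14 on the DB3 arrays, against 7.54, 7.93 and 7.76 on the sDB3 arrays. The AB arrays read 8.26, 8.02 and 7.93, and the sAB arrays 8.01, 8.20 and 7.69. All DB3 arrays lay below all arrays of the other groups. Relative to AB it fell 2.06-fold in DB3 (-1.04 ± 0.20, n = 3 per group, limma adjusted p = 0.010). Against sDB3 the difference was -0.72 ± 0.20 (95% interval -1.16 to -0.28) with adjusted p = 0.059, short of the threshold of 0.05, although the groups did not overlap. AB and sAB differed by 0.10 (interval -0.34 to 0.54, adjusted p = 0.75). A second, dimmer probe set of the gene was also lowest in DB3 on average, at 3.38, 5.85 and 5.15, but its 3 arrays were far apart and it did not pass. With the mean of the probe sets DB3 minus AB was -0.85 (adjusted p = 0.13). Of the 5 tested activated fibroblast markers, Postn (-1.91, adjusted p = 0.0079) and Meox1 (-1.99, adjusted p = 0.0040) also fell in DB3 against AB, with a median of -0.92 over the 5, where 9.16% of all genes passed. Their part in the Adamts9, Adamtsl2 and Adam19 results was not tested.

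Adamts5 and Adamts1 cleave aggrecan and versican as well. Adamts5 read 9.27, 9.04 and 8.73 in AB and 8.97, 9.07 and 9.27 in sAB. In DB3 it read 9.09, 9.03 and 9.35, against 8.68, 8.23 and 9.10 in sDB3. The lowest mean was that of sDB3, in which replicate 3 lay within the range of the other groups. AB minus sAB was -0.09 (95% interval -0.54 to 0.36) and DB3 minus sDB3 was 0.49 (0.04 to 0.94), with limma adjusted p-values of 0.79 and 0.16. Its 3 tested probe sets all had a higher mean in DB3 than in sDB3, by 0.49, 0.55 and 0.60, and none passed there over all probe sets. For sDB3 minus sAB they gave -0.44, -0.65 and 0.11, in the same order, and of these the second passed (limma adjusted p = 0.042).

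The spread of Adamts1 between mice of a group was the widest of the tested members in DB3. It read 8.51, 7.56 and 7.73 in AB, 7.89, 8.46 and 8.47 in sAB, 7.43, 8.86 and 7.94 in DB3 and 8.04, 8.49 and 8.37 in sDB3. All groups overlapped. The difference was -0.34 for AB minus sAB (95% interval -1.11 to 0.43) and -0.22 for DB3 minus sDB3 (-0.99 to 0.55), so that changes within these intervals could not be resolved.

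Adamts4, another aggrecan-cleaving enzyme, was below log2 4 on every array. It read 3.37, 3.06 and 2.91 in AB, 2.50, 2.56 and 2.50 in sAB, 2.43, 2.47 and 2.46 in DB3 and 2.47, 2.50 and 2.50 in sDB3. Exactly the same value, 2.502, was deposited for 4 of the arrays. All AB arrays lay above all others. No difference or test is given for so dim a probe set. Its second probe set read 2.93 to 3.86 in AB and at most 3.03 elsewhere, reached on an sAB array, so that there AB and sAB overlapped.

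Among the membrane proteases, Adam19 had the widest range over the 12 arrays, 2.17. Known as meltrin beta, it releases neuregulin, and in the mouse it is needed for the endocardial cushions of the developing heart. It read 7.90, 8.39 and 8.02 in DB3 and 8.01, 7.49 and 9.24 in sDB3. In AB it read 9.44, 9.49 and 9.34, and in sAB 9.56, 9.66 and 9.40. The arrays of the second operation thus all lay below those of the first, with 1 of them, sDB3 replicate 3, close to the AB values. The banded and sham groups overlapped at both dates, with differences of -0.12 for AB minus sAB (95% interval -0.87 to 0.63, limma adjusted p = 0.84) and -0.14 for DB3 minus sDB3 (-0.89 to 0.61, adjusted p = 0.82). A p-value that misses the threshold leaves all changes within these intervals possible.

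Between the dates, Adam19 fell 2.49-fold in DB3 relative to AB (-1.32 ± 0.34, n = 3 per group, limma adjusted p = 0.036) and 2.45-fold in sDB3 relative to sAB (-1.29 ± 0.34, adjusted p = 0.027). AB stood 2.26-fold above sDB3 (1.17 ± 0.34, adjusted p = 0.033). The call for DB3 and AB was lost without any 1 AB array, any 1 DB3 array, or sAB replicate 1 or 2 (differences of -1.46 to -1.22, adjusted p up to 0.12). For sDB3 and sAB it was lost without any 1 sAB array or sDB3 replicate 1 or 2 (-1.36 to -0.91, adjusted p up to 0.079). For AB and sDB3 it was lost without any 1 AB array or sDB3 replicate 1 or 2 (0.80 to 1.22, adjusted p up to 0.097). Without sDB3 replicate 3 the last difference was 1.67. Over all alternatives the calls were lost in 11 of 22, 8 of 21 and 11 of 22, in the order given. The second Adam19 probe set gave -1.31 for DB3 minus AB, -1.36 for sDB3 minus sAB and 1.48 for AB minus sDB3, with adjusted p-values over all probe sets of 0.067, 0.039 and 0.026.

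Adam10, the main sheddase of Notch and of N-cadherin, moved within a narrower range, 0.67 from its lowest to its highest array. It read 10.05, 10.13 and 10.39 in sDB3, against 10.60, 10.62 and 10.65 in sAB. In DB3 it read 10.38, 10.39 and 10.47, against 10.58, 10.72 and 10.57 in AB. As for Adam19, on this probe set every array of the second operation lay below every array of the first, and sDB3 replicate 3 was the highest of its group. It fell 1.35-fold in sDB3 relative to sAB (-0.43 ± 0.09, n = 3 per group, limma adjusted p = 0.011, or 0.060 when only these groups were fitted), and AB stood as far above sDB3 (0.43 ± 0.09, adjusted p = 0.0078, or 0.28 and 0.056 after each array was centred on its median). DB3 minus AB was -0.21 (95% interval -0.40 to -0.02, adjusted p = 0.17) and DB3 minus sDB3 was 0.22 (0.03 to 0.42, adjusted p = 0.14, and 0.32 with adjusted p = 0.042 without sDB3 replicate 3). AB minus sAB was 0.003, with an interval of -0.19 to 0.20. A second probe set gave -0.58 for sDB3 minus sAB and 0.52 for AB minus sDB3 and passed in both (adjusted p = 0.022 and 0.030), and another did not. On both of these probe sets the arrays of the second operation overlapped with those of the first.

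Atrial markers were also unequal between these groups. The summed signal of Myl7, Myl4, Sln, Bmp10 and Dkk3, leaving out Nppa, was 11.29 to 13.96 (log2) in sDB3 and 8.75 to 10.56 in sAB, and 6.83 to 13.82 in DB3 and 10.67 to 13.09 in AB. Bmp10 was at the floor throughout, and 0 of the 4 others passed in sDB3 against sAB. In sDB3 the atrial sums of replicates 1, 2 and 3 were 13.38, 13.96 and 11.29. Adam19 read 8.01, 7.49 and 9.24 on these arrays, and Adam10 read 10.05, 10.13 and 10.39. In sAB the sums were 10.56, 8.75 and 10.51, with Adam19 at 9.56, 9.66 and 9.40 and Adam10 at 10.60, 10.62 and 10.65. In DB3 they were 10.60, 13.82 and 6.83, with Adam19 at 7.90, 8.39 and 8.02 and Adam10 at 10.38, 10.39 and 10.47. In AB they were 12.61, 10.67 and 13.09, with Adam19 at 9.44, 9.49 and 9.34 and Adam10 at 10.58, 10.72 and 10.57. The sum of the 7 ventricular muscle markers was 18.59 to 18.62 in sDB3 and 18.56 to 18.57 in sAB. The part of atrial tissue in the Adam10 and Adam19 results between sDB3 and sAB was not tested.

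Adam15, or metargidin, whose disintegrin domain binds integrins, differed between AB and sAB. Its brightest probe set read 7.72, 7.69 and 7.72 in AB, against 7.27, 7.36 and 7.60 in sAB. In DB3 it read 7.63, 7.58 and 7.63, and in sDB3 7.75, 7.63 and 7.63. All AB arrays lay above all sAB arrays. On 4 of the 12 arrays, in DB3 and sDB3, the deposited value was identical, 7.628. It rose 1.23-fold in AB over sAB (0.30 ± 0.08, n = 3 per group, limma adjusted p = 0.027). The call was lost without any 1 AB array and without sAB replicate 1 or 2 (0.23 to 0.31, adjusted p up to 0.094). Against sDB3 it did not pass (0.04, 95% interval -0.14 to 0.22, adjusted p = 0.74).

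The other probe sets of Adam15 gave larger differences. Over all probe sets, 1 rose by 0.75 in AB against sAB and by 0.61 against sDB3 (limma adjusted p = 0.0090 and 0.025), and 1 rose by 0.86 against sAB but by 0.19 against sDB3 (0.00079 and 0.28). The first of these read 6.97, 7.28 and 7.29 in AB, 6.12, 6.33 and 6.85 in sAB, 6.87, 6.81 and 6.71 in DB3 and 6.66, 6.54 and 6.50 in sDB3. Here AB lay above every other array. The second read 6.43, 6.46 and 6.32 in AB and 5.21, 5.71 and 5.71 in sAB, with DB3 at 6.22, 6.22 and 6.22 and sDB3 at 6.23, 6.20 and 6.20. Its sAB arrays lay below all 9 others, the same split as that of BioC.

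Adam12, or meltrin alpha, which releases HB-EGF, was at or near the floor of the scale. It read 2.23, 2.27 and 2.27 in AB, 2.27, 2.30 and 2.27 in sAB and 2.27 on all DB3 arrays, and 2.27, 3.15 and 2.27 in sDB3. Its 2 probe sets give no measurable level here.

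**Figure D2:**
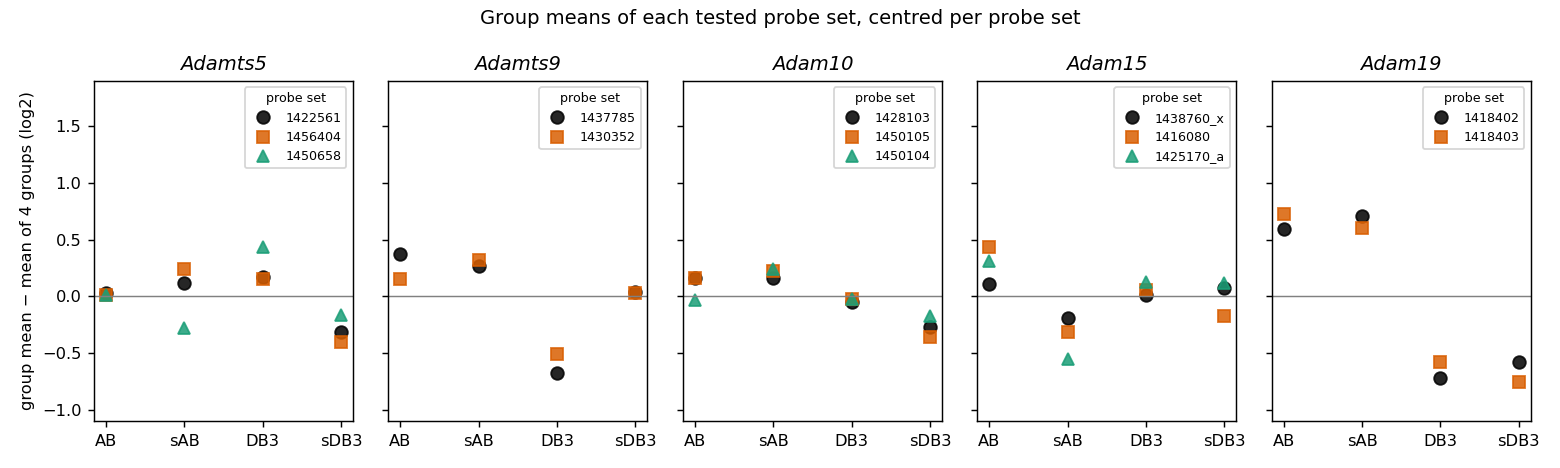
Group means of each tested probe set of the 5 members that have more than 1, minus the mean of the 4 groups for that probe set (vertical axis, log2). Both Adam19 probe sets lie high in AB and sAB and low in DB3 and sDB3, all 3 Adam15 probe sets are lowest in sAB, 0.30 to 0.86 below AB, and the Adamts5 probe sets disagree in sAB.

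Counted by comparison, 2 of the 7 tested members rose and 0 fell in AB against sAB (Adamtsl2 and Adam15), where 19.7% of all genes passed. Against sDB3, 3 rose in AB and 0 fell (Adamtsl2, Adam10 and Adam19), where 22% of genes passed. In DB3 against AB, 0 rose and 3 fell (Adamtsl2, Adamts9 and Adam19), where 9.16% passed. In sDB3 against sAB, 0 rose and 2 fell (Adam10 and Adam19), where 17.8% passed. In DB3 against sDB3 limma called 0 of 7, with 3 at an unadjusted p under 0.05 (Adamts9, Adamts5 and Adam10), where 6.36% of genes passed. An unmoderated analysis of variance also called 0, and limma with trended, robust moderation called 1, Adamts9 (adjusted p = 0.042). The difference of effects was called for 1 of 7, where 6.04% passed. The median log2 difference of the 7 was 0.003 in AB against sAB and -0.14 in DB3 against sDB3, beside 0.012 and 0.091 over all genes.

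The groups did not overlap for 2 of 7 members in AB against sAB (42.1% of all genes), 4 in AB against sDB3 (43%), 1 in DB3 against sDB3 (28.1%), 5 in DB3 against AB (32.3%) and 3 in sDB3 against sAB (36.9%). The 5 in DB3 against AB (Adamts9, Adamtsl2, Adam10, Adam15 and Adam19) all lay lower in DB3.

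**Figure D3:**
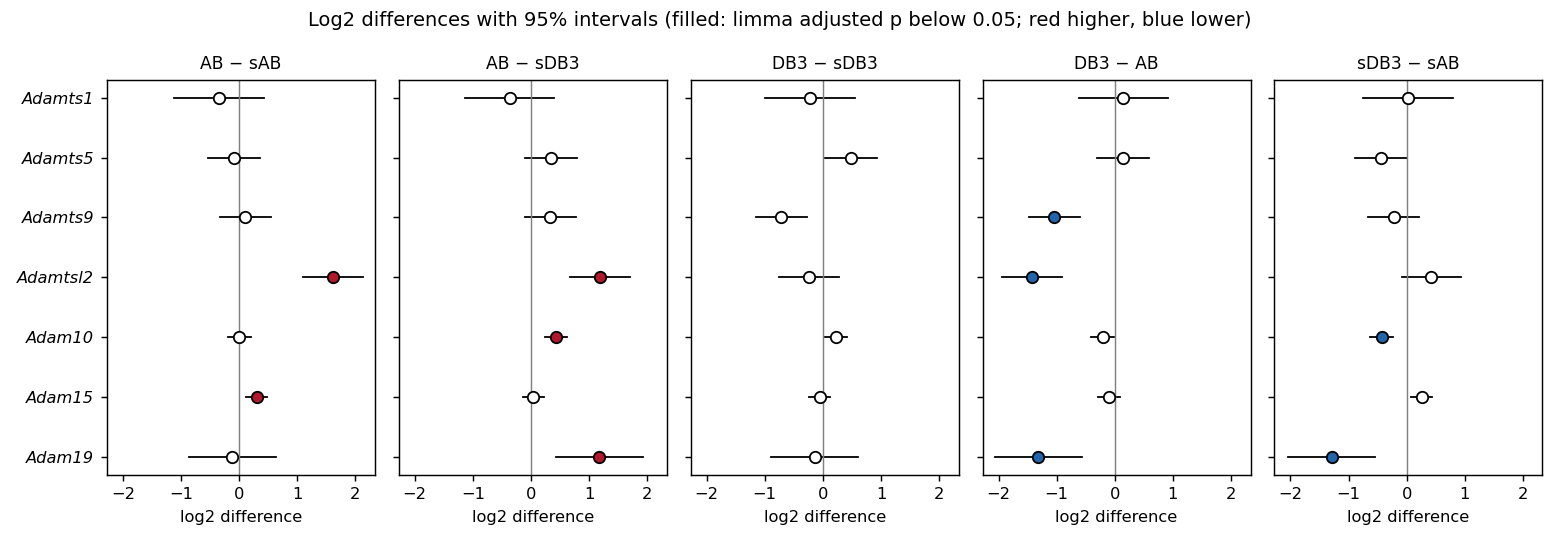
Log2 differences (horizontal axis) of the 7 tested members with their 95% intervals in 5 comparisons, each named first minus second group. Filled points passed limma at an adjusted p below 0.05, red higher and blue lower. Adamtsl2 passes in both comparisons of AB with a sham and in DB3 against AB, and Adam19 passes in the comparisons that cross the second operation.

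For the 3 members with the smallest F test p, the genes most like them over the 12 arrays were found by Pearson's r, as a description. The arrays carry the same 4 groups, so the likeness includes the group pattern. Adamtsl2 was followed most closely by Itga9, an integrin subunit (r = 0.966), Uck2, a uridine-cytidine kinase (0.956), and Ddr1, a collagen receptor kinase (0.950). Itga9 read 7.36 in AB, 6.23 in sAB, 6.45 in DB3 and 6.50 in sDB3 (group means), the same order of AB above the rest. Adamts9 was followed by the amino acid transporter Slc38a2 (0.912), the cyclin Ccnd1 (0.885) and the small heat shock protein Hspb3 (0.878), each lowest in DB3. Adam10 was followed by Vps26c, an endosomal sorting protein (0.937), Tmtc2 (0.935) and the ribosome recycling factor Abce1 (0.933).

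Of 28 other ADAM and ADAMTS genes listed, 11 were tested. In AB against sAB 1 rose and 2 fell, where 19.7% of all genes passed, with a median log2 difference of 0.005 beside 0.012 over all genes. Adamtsl5, which like Adamtsl2 has no protease domain, rose by 0.76 ± 0.10 (limma adjusted p = 0.00080), and by 0.82 against sDB3 (0.00075). It read 8.86, 8.87 and 8.87 in AB and 8.04, 8.13 and 8.16 in sAB, without overlap. Adamts15, a versican-cleaving enzyme, fell by 0.75 in AB against sAB (adjusted p = 0.0086), but AB minus sDB3 was 0.15 (adjusted p = 0.52), and every sAB array lay above all 9 others. The other that fell was Adam22 (-0.49, adjusted p = 0.034), named after its value was seen, and its call was lost without AB or sAB replicate 1 or 2 (adjusted p up to 0.11). Its AB minus sDB3 was -0.13 (adjusted p = 0.53), and every sAB array again lay above all 9 others. Adamtsl3 and Adamts3 differed by -0.57 and -0.49 and did not pass (adjusted p = 0.090 and 0.15). In DB3 against sDB3 0 of the 11 passed. In sDB3 against sAB 1 rose and 3 fell, where 17.8% of all genes passed. Adamtsl4 rose by 0.51 (limma adjusted p = 0.0098) and Adamts15 fell by 0.91 (0.0059). The others that fell were Adam17 and Adam9, sheddases close to Adam10 in function. Adamtsl4, Adam17 and Adam9 were named after their values were seen. Adam17 fell by 0.29 and Adam9 by 0.31 (adjusted p = 0.041 and 0.025). The call for Adam17 was lost in 15 of 21 alternatives, and that for Adam9 in 5 of 21, among them without sAB replicate 3 or sDB3 replicate 2 or 3 (up to 0.080). AB minus sDB3 was 0.42 for Adam9 (limma adjusted p = 0.0053), lost in 0 of 22 alternatives. For Adam17 it was 0.30 (adjusted p = 0.033), lost in 9 of 22.

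Of 22 inhibitors, partners and activating proteases listed, 18 were tested, and in AB against sAB 5 rose and 0 fell (median 0.32 beside 0.012 over all genes), where 19.7% of all genes passed. Furin, the convertase that opens ADAM and ADAMTS precursors, rose by 1.04 ± 0.16 (limma adjusted p = 0.0015), while AB minus sDB3 was 0.08 (adjusted p = 0.74). Its group means were 7.88 in AB, 6.84 in sAB, 7.74 in DB3 and 7.80 in sDB3, so sAB was the group that stood apart, as on BioC. Tspan17, a tetraspanin that carries ADAM10 through the cell, rose by 1.02 ± 0.13 against sAB (adjusted p = 0.00068), by 1.19 against sDB3 (0.00051) and by 0.61 in DB3 against sDB3 (0.031). The last call was lost in 10 of 22 alternatives (adjusted p up to 0.10). Among them were quantile normalisation, median centring and the fits without DB3 replicate 1 or 3 or sDB3 replicate 1 or 2. The protease inhibitor Timp1 (1.14 ± 0.54, adjusted p = 0.17) and the convertase Pcsk5 (0.86 ± 0.29, adjusted p = 0.058) did not pass. In DB3 against AB 0 rose and 5 fell, where 9.16% of all genes passed.

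Matrix substrates and partners counted 24 genes, of which 19 were tested, and 5 rose and 0 fell in AB against sAB (median 0.51), where 19.7% of all genes passed. Ltbp2 and Ltbp4, latent TGF-beta binding proteins, rose by 2.37 and 1.09, and Col1a1 by 1.76, a call lost without AB replicate 3 or sAB replicate 1 or 2 (limma adjusted p up to 0.0995). Ltbp4 also rose by 0.30 in DB3 against sDB3 (adjusted p = 0.039), a call lost in 15 of 22 alternatives, and AB minus sDB3 was 0.38 (0.0053). Comp, a cartilage matrix protein also made by activated fibroblasts, did not pass (1.49 ± 0.69, adjusted p = 0.16). Vcan, the proteoglycan that Adamts1, Adamts4, Adamts5 and Adamts9 cleave, was named after its values were seen. It had group means of 7.24 in DB3, against 8.83 in AB, and fell by 1.59 ± 0.34 (adjusted p = 0.016). That call was lost without AB replicate 2 or 3 or DB3 replicate 1 or 3 (-1.94 to -1.33 over all alternatives, adjusted p up to 0.070). AB minus sAB was 0.40 for Vcan (adjusted p = 0.44). Its sDB3 mean was 7.52, and DB3 minus sDB3 was -0.29 (limma adjusted p = 0.62), so the low level was shared with sDB3. AB minus sDB3 was 1.31 (adjusted p = 0.021), a call lost in 5 of 22 alternatives. In DB3 against AB 0 matrix genes rose and 5 fell, with a median of -0.76 beside -0.02 over all genes, of which 9.16% passed.

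Substrates of ADAM proteases, mostly membrane proteins but with the secreted binding proteins Igfbp3 and Igfbp5 among them, numbered 40. Of these 27 were tested, and 8 rose, Igfbp5 included, and 0 fell in AB against sAB (median 0.22), where 19.7% of all genes passed. Hbegf, the heparin-binding EGF-like growth factor, rose by 0.77 ± 0.12 (limma adjusted p = 0.0016) and by 1.12 against sDB3 (0.00041). Cx3cl1, fractalkine, rose by 0.94 ± 0.15 (adjusted p = 0.0018) and Notch4, an endothelial Notch receptor, by 0.66 ± 0.14 (0.0094). AB minus sDB3 was 0.996 for Cx3cl1 (adjusted p = 0.0018) and 0.28 for Notch4 (0.18). Ace, angiotensin-converting enzyme, rose by 1.53 ± 0.16 (0.00019), with group means of 8.30 in AB, 6.77 in sAB, 8.04 in DB3 and 7.83 in sDB3. Against sDB3 Ace did not pass (0.47, adjusted p = 0.053). In DB3 against sDB3 4 rose, Igfbp5 again included, and 0 fell, where 6.36% of all genes passed. Cx3cl1, Notch4 and Ace are also endothelial genes. The endothelial sums given above were higher in AB than in the other groups, while those of sAB and sDB3 overlapped. The part of endothelial cells in these results was not tested.

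**Figure D4:**
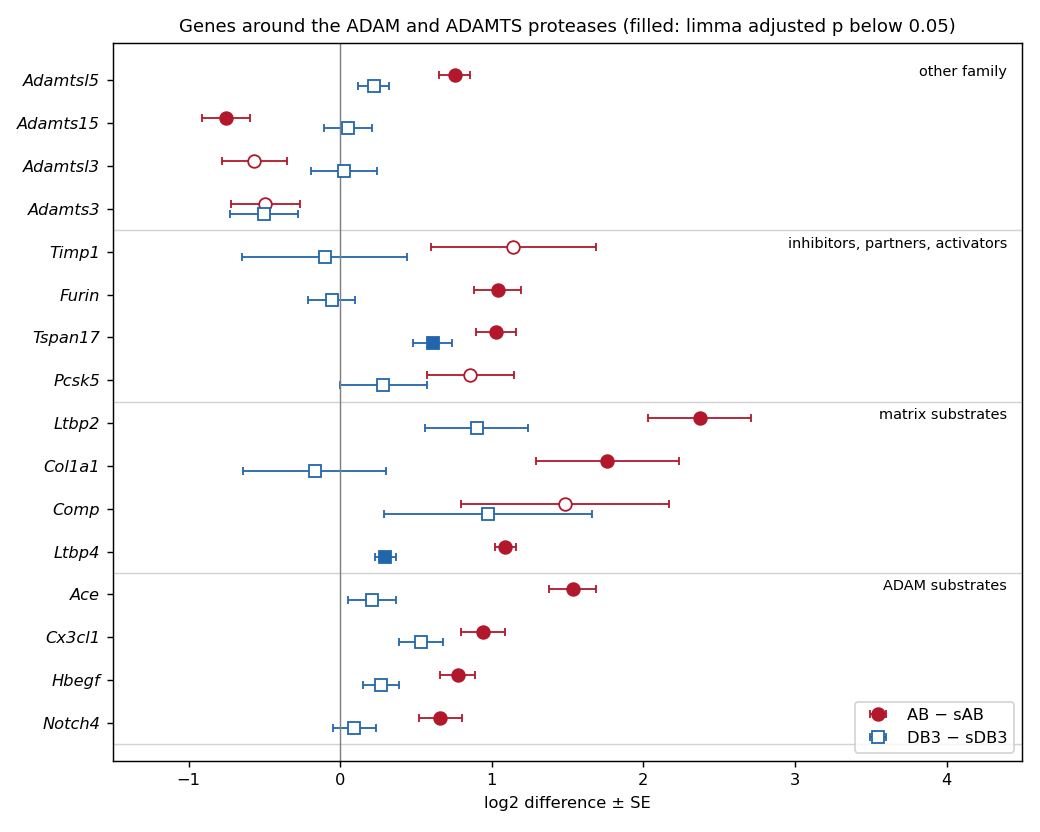
Log2 differences ± SE (horizontal axis) of 16 genes, those with the largest AB minus sAB difference in size in each of the 4 lists around the proteases, AB minus sAB in red and DB3 minus sDB3 in blue, filled where limma's adjusted p was below 0.05. Since that difference chose the genes, the number of filled points in AB against sAB says nothing about the lists; in DB3 against sDB3 Tspan17 and Ltbp4 are filled.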

How the data were processed

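RNA from the left ventricular muscle of 12 mice (3 in each of the 4 groups AB, sAB, DB3 and sDB3) had been hybridised to 1 Affymetrix array each. The deposited values are log2 signals of 45101 probe sets, made by the authors with GCRMA per the submitters' processing notes. GCRMA is a method that corrects background by probe sequence, normalises between arrays and summarises probes, and it compresses folds of dim probe sets. Its version is not given in the sources used. The number of arrays limits the precision. Groups came from the labels, and replicate numbers only name samples. The labels do not say more than that the samples are separate, so p-values set group differences against the spread between these samples.

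Probe sets were named through GEO's platform annotation, in which 34945 carried 1 symbol, 932 several, 9160 none and 64 were controls, and the symbols of 34741 probe sets were found in RefSeq. Genes were represented by their brightest probe set and tested when log2 was above 4 on at least 3 arrays (10435 genes). One limma model (R 4.3.3, limma 3.58.1, lmFit and eBayes) of the 4 groups was used, with Benjamini-Hochberg adjustment over all genes tested and a threshold of 0.05. The fit was also tested on simulated data. AB was also set against sDB3 because of the sAB arrays. Alternatives changed the dim filter, the choice of probe set, the normalisation, the moderation, the samples in the fit and each array in turn, and the fit without sAB was added after seeing the data. All members were described, and likeness was taken for the 3 members with the smallest F test p. From each of the 4 lists of other genes up to 4 were named by the largest AB minus sAB difference. The members and lists were chosen with earlier results of these data known. Promoter windows are RefSeq's on GRCm38.p6, and 7 of 10 members matched by symbol.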

Additional observations from a re-analysis of the deposited data

Results flagged for a closer look

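The banded-minus-sham difference was unequal at the 2 dates for 1 of the 7 tested members and for 3 genes named from the lists around it. Over all genes 6.04% passed. The 3 list genes had been named for a large AB minus sAB difference, which is itself a part of this contrast. Their number therefore says nothing about the lists. The test was limma's, of DB3 minus sDB3 less AB minus sAB. Adamtsl2 had a difference of -0.24 in DB3 against sDB3 and of 1.61 in AB against sAB, which gives -1.85 (limma adjusted p = 0.015). For Furin the value was -1.09 (adjusted p = 0.023), and it was no longer called without AB replicate 2 or sDB3 replicate 1 (adjusted p up to 0.060). Ltbp4 gave -0.79 (adjusted p = 0.0040) and Ace -1.32 (adjusted p = 0.012). For Furin, Ltbp4 and Ace every sAB array lay below every array of the other groups, the split that BioC also showed, and there batch and group cannot be told apart. For Adamtsl2 the sAB arrays overlapped with DB3 and sDB3. Rhbdf2, listed among the inhibitors, partners and activating proteases but not named above, also passed (-0.48, limma adjusted p = 0.038). Its sAB arrays overlapped with DB3 and sDB3 too. With groups of 3 arrays, no test of single outlying samples is reported.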

How the results depend on the processing

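Over 896 values of the tested members under other settings, 845 stayed on the same side of the threshold, 39 lost and 12 gained a call, and 0 called values changed sign, while 29 values changed sign where no fit passed. The Adamtsl2 calls held in all alternatives run. No paired analysis was possible because the labels give no replicate numbers. Median centring moved the median of all genes by -0.15 in AB against sDB3, by -0.13 in DB3 against sDB3 and by 0.11 in sDB3 against sAB. The cause of the shifts below was not tested, except that fewer arrays or more probe sets enter some fits. Dim probe sets (Adamts4, Adam12) have compressed folds.

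Members called changed as follows. In sDB3 against sAB (2 in the fit reported) the count was 1 without a dim filter, 1 with an unmoderated analysis of variance and 0 with only the groups compared. In that last fit 3 of 7 members had an unadjusted limma p under 0.05, as did 3162 of 10435 genes. In DB3 against sDB3 (0) the count was 1 with the dim filter at log2 6 and 1 with trended, robust moderation. In the difference of effects (1) it was 2 after quantile normalisation and 2 after median centring, where Adam15 was added (-0.43 and -0.45, adjusted p = 0.040 and 0.035). In AB against sDB3 (3) it was 1 after median centring, and in AB against sAB (2) it was 1 with only the groups compared. Leaving out each array in turn gave 1 to 2 members in AB against sAB, 0 to 1 in DB3 against sDB3, 1 to 2 in the difference of effects, 2 to 3 in DB3 against AB, 1 to 3 in sDB3 against sAB, 2 to 3 in AB against sDB3 and 4 to 5 in the F test.

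Counts over all genes moved more. In DB3 against sDB3 (664 genes) they were 323 without a dim filter, 199 after quantile normalisation, 427 unmoderated, 400 without the sAB arrays and 0 with only the groups compared (limma, 2137 at an unadjusted p under 0.05, and 427 called by the unmoderated analysis of all groups). In the difference of effects (630) they were 338 without a dim filter and 976 over every probe set. Testing every probe set gave 3391 in AB against sAB (2058) and 2987 in sDB3 against sAB (1861), and fitting only the groups compared gave 629 in DB3 against AB (956) and 571 in sDB3 against sAB. Leaving out each array in turn gave 1139 (without AB replicate 3) to 2119 genes in AB against sAB, 170 (without sDB3 replicate 2) to 535 in DB3 against sDB3, 152 (without AB replicate 3) to 567 in the difference of effects, 365 (without AB replicate 3) to 1031 in DB3 against AB, 967 (without sDB3 replicate 2) to 1945 in sDB3 against sAB and 1124 (without AB replicate 3) to 2354 in AB against sDB3.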
